A study of Mus musculus with 12 samples.

Results

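The core circadian clock and its proline- and acidic-rich basic leucine zipper (PAR bZIP) output factors were followed through 10 genes: Dbp, Tef and Hlf (the PAR bZIP factors), Per1, Per2, Per3 and Cry1 (the repressors of the loop), Arntl (also called Bmal1, its activator), and Nr1d1 and Nr1d2 (the REV-ERB nuclear receptors). They were found among 17305 genes named on the array through the accession of each probe. All 10 had at least 1 probe, 16 probes in all, and all 10 had a probe bright enough to test, 12 probes in all. The genes were chosen by their name and role with their null over wild-type values in each replicate and dye orientation already known, so those values are given as a description, without a test. The mean level of both genotypes was not used in that choice and was tested.

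Kidneys came from mouse embryos at embryonic day 14.5 on a C57BL/6 background that were either null or wild type (WT) for Bdkrb2, the gene of the bradykinin B2 receptor. Their mothers were heterozygous for Bdkrb2, were mated to heterozygous mice and ate food with 5% sodium, so both genotypes shared the salt exposure and no group without it was analysed here. Each of 12 two-colour Agilent arrays compared null with WT RNA directly: 6 with the null RNA in Cy5 (null/WT) and 6 with the dyes exchanged (WT/null), with 3 replicates per orientation and 2 arrays per replicate. Each of 3 slides held the 4 arrays of 1 replicate number, so slide and replicate number cannot be told apart. The labels do not say whether a sample held 1 embryo or several, at what hour kidneys were taken, or whether both orientations of a number used the same extracts. With shared extracts each genotype would have 3 independent samples, and the p-values here would measure spread that is partly technical.

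In the mammalian clock, ARNTL pairs with CLOCK on E-box sequences and drives the Per, Cry and Nr1d genes and the PAR bZIP gene Dbp. PER and CRY proteins return to block that pair, and the REV-ERB receptors repress Arntl through a second loop. DBP, TEF and HLF bind D-box sequences, and the repressor NFIL3 competes for the same sites. In the adult kidney this loop sets daily rhythms of salt and water transport genes, and Per1 is also switched on quickly by glucocorticoid hormones and cyclic AMP signalling.

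Promoter sequence from RefSeq (assembly GRCm38.p6) was found for 9 of the 10 genes, as the 250 bases before each annotated start. The windows of Dbp, Per1 and Per3 are shown because these were the genes whose level differed between slides. The first of the Per1 windows is given, and all run 5′ to 3′ on the gene's own strand. Capitals mark a match to one of 4 motifs: the E-box CACGTG, the D-box TTATGTAA or TTACGTAA, the cyclic AMP response element TGACGTCA and the nuclear receptor half-site AGGTCA, searched on both strands.
Dbp, chr7:45704997-45705246, plus strand: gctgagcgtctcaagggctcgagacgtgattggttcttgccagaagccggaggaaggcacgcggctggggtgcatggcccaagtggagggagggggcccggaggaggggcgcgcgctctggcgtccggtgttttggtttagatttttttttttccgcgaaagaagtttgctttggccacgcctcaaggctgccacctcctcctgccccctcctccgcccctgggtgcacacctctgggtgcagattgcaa
Per1, chr11:69098699-69098948, plus strand: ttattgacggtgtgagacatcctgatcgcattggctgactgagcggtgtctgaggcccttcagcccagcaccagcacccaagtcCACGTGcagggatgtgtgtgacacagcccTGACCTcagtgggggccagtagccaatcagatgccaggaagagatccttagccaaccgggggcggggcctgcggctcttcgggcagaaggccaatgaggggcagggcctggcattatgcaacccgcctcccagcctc
Per3, chr4:151044666-151044915, minus strand: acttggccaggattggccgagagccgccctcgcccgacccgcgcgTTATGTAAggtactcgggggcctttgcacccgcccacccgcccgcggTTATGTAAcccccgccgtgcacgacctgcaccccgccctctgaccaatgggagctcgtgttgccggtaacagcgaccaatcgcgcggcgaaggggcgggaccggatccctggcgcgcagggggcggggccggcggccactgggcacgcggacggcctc

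The Per1 window held an E-box from 166 to 161 bases before the start and, on the other strand, a nuclear receptor half-site from 137 to 132 bases before it. The Per3 window held the D-box TTATGTAA at 205 to 198 and again at 158 to 151 bases before the start. No letters of the 4 motifs were found in the Dbp window. Among the other genes, an E-box lay in the windows of Cry1 (60 to 55 bases before the start) and Tef (138 to 133 and 127 to 122 bases, in separate windows). Hlf carried the cyclic AMP response element at 9 to 2 bases and Nr1d2 the half-site at 77 to 72 bases before the start. The windows of Nr1d1 and Arntl held none of the 4. An E-box was thus present in 3 of 9 member genes, against 6.02% of 32851 promoter windows of the same length. The D-box was present in 1 of 9 against 0.932% of windows, the cyclic AMP element in 1 of 9 against 1.55%, and the half-site in 2 of 9 against 14.0%. A gene with several windows had more chances to hold a match, and a match describes letters only.

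Between 41.2% and 60.0% of spots other than controls were well above background per array channel. The lowest was the null channel of the first array of WT/null replicate 3. The arrays of that replicate correlated at 0.711, against 0.824 to 0.923 for the other 5 replicates. Of 9 tested embryonic kidney markers, 8 were above background in all 24 channels; the ureteric bud receptor gene Ret was not tested. Slide 3 stood apart in skeletal muscle markers (the median of 5 genes was 2.29 on the log2 null over WT scale, against 0.14 on slide 1 and 0.48 on slide 2), with smaller shifts of erythroid (0.56), liver (0.28) and leukocyte (0.28) markers. Their levels were summed per list on the linear scale, where the brightest gene weighs most, and the sum was turned to log2. For muscle it ranged from 9.16 to 11.86 in null and from 9.05 to 9.53 in WT. For 4 erythroid genes it ranged from 17.23 to 18.29 in null and 16.91 to 18.06 in WT. For 3 liver genes these ranges were 10.96 to 12.70 and 10.96 to 12.64, and for 4 leukocyte genes 11.05 to 11.66 and 10.98 to 11.59. The medians of adrenal and of neuron and neural crest markers lay between -0.13 and 0.07 on every slide, and Ckm, Apoa1, Cyp11a1 and Th were among the markers not tested. Of the Y chromosome, Kdm5d, Ddx3y and Eif2s3y were above background in 0 null channels and in 0, 4 and 4 of the 4 WT channels on slides 1, 2 and 3. Xist was above background in 4 of 4 null channels on each slide and in 4, 0 and 0 of 4 WT channels. On bulk tissue, fewer cells of a type and less RNA per cell cannot be told apart.

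The mean null over WT difference of the 10 genes lay between -0.17 (Dbp) and 0.12 (Nr1d1) on the log2 scale. It was below 0 for 8 member genes and above 0 for Hlf and Nr1d1. The median size of the difference, whatever its sign, was 0.06 on the log2 scale over the 10 genes and 0.05 over all tested genes. Measured against 0, most of these signs depended on the normalization. When each array was centred on its median and loess was left out, 7 of the 8 negative means turned positive. Of the brightest tested probe of each gene, only that of Per3 stayed below 0. The typical tested probe moved up as well, from a median of -0.01 to 0.138. Against that median the 8 genes still lay lower, from -0.065 (Per3) to 0.135 (Arntl). Hlf (0.184) and Nr1d1 (0.147) still lay higher, with Arntl and Nr1d1 close to the median.

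**Figure D1:**
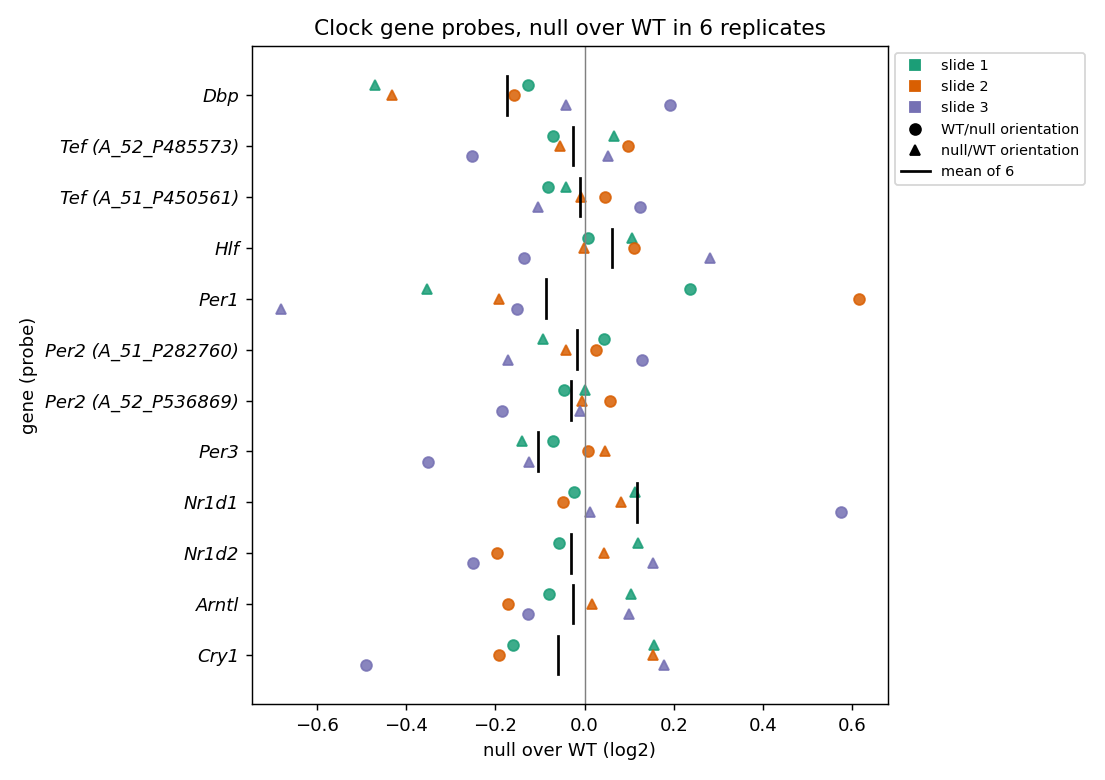
Log2 null over WT (horizontal axis) of the 12 tested probes of the 10 genes (vertical axis), 1 point per replicate, coloured by slide and shaped by dye orientation, with a black bar at the mean of 6. Per1 spreads from -0.68 to 0.61 and Dbp from -0.47 to 0.19, while 1 value of Nr1d1 stands at 0.57, away from its other 5.

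Among the PAR bZIP factors, Dbp had lower values in null kidneys on slides 1 and 2 and not on slide 3, although slide 1 turned positive under median centring. DBP is the output factor whose transcript swings widely over the day in adult kidney and liver. Its log2 null over WT values were -0.13 and -0.47 on slide 1 (WT/null, then null/WT), -0.16 and -0.43 on slide 2, and 0.19 and -0.04 on slide 3. Both orientations of slides 1 and 2 were thus below 0, as were 8 of 8 single arrays there, while on slide 3 only 2 of 4 arrays lay below 0. The single arrays are duplicates and dye exchanges of a replicate number and are not independent. Slide means were -0.30, -0.29 and 0.07, or 1.23-fold lower, 1.23-fold lower and 1.05-fold higher in null. The mean over 6 replicates was -0.17 ± 0.07 (SE), 1.13-fold lower. It was -0.30 without replicate 3 and -0.11 without replicate 1 or without replicate 2. This SE and those below take the 6 values as independent. With the replicate number as a block, which compares the 3 slide means with 0, the SE of Dbp was 0.085 against 0.071. For Per1 it was 0.113 against 0.099 and for Per3 0.065 against 0.056, while it was smaller for Hlf and Nr1d1.

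The groups could be followed in each colour channel as well. The log2 level of Dbp was 12.51, 12.76 and 12.96 in null and 12.81, 13.06 and 12.89 in WT on slides 1, 2 and 3. The null level thus spanned 0.46 over the slides and the WT level 0.25. Under median centring the Dbp slide means were 0.18, -0.43 and 0.34, beside medians of all tested probes of 0.33, -0.07 and 0.18, so that only slide 2 stayed below 0. Relative to those medians, Dbp was still lower on slides 1 and 2 and higher on slide 3. On slides 1, 2 and 3 the muscle marker median was 0.14, 0.48 and 2.29 and the erythroid one -0.13, -0.04 and 0.56, and the WT channels held the Y-linked genes on slides 2 and 3 but not on slide 1. The part of these markers in the Dbp values was not tested.

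Tef and Hlf, which bind the same D-box, lay closer to 0. The brighter Tef probe had replicate values from -0.25 to 0.10 with a mean of -0.03 ± 0.05, and the other tested Tef probe a mean of -0.01 ± 0.04. A further Tef probe was above background in no channel and was not tested. Hlf had slide means of 0.06, 0.06 and 0.07 and a mean of 0.06 ± 0.05. Its slide means had a range of 0.02, as small as that of the brighter Per2 probe. The 6 Hlf replicates still ran from -0.14 to 0.28, both extremes being the orientations of slide 3.

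Among the repressors, Per1 had the widest spread of all 10 genes. PER1 is a subunit of the complex that blocks CLOCK and ARNTL, and its gene responds fastest to outside signals. Its values were 0.24 and -0.35 on slide 1 (WT/null, then null/WT), 0.61 and -0.19 on slide 2, and -0.15 and -0.68 on slide 3. The WT/null value was above the null/WT value on every slide, by 0.59, 0.81 and 0.53. With both orientations averaged, slide means were -0.06, 0.21 and -0.42, so Per1 was 1.16-fold higher in null on slide 2 and 1.33-fold lower on slide 3. The mean was -0.09 ± 0.10, within its error of 0, and it turned to 0.08 without replicate 3 and to 0.09 under median centring.

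The Per1 duplicates on the paired arrays of a replicate differed by at most 0.10, well under the gap between orientations. The spread over slides lay more in WT than in null: the log2 level of Per1 was 9.89, 9.53 and 9.74 in null and 9.95, 9.32 and 10.15 in WT on slides 1, 2 and 3. This made a range of 0.36 in null and 0.84 in WT. WT kidneys on slide 2 were the lowest of the 6 slide and genotype combinations and WT kidneys on slide 3 the highest. That difference between genotypes in range was not tested. Slide 3 is also where the muscle markers were shifted, and their part in the Per1 values was not tested.

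Per2 and Per3, the other PER repressors, were dim. The brighter Per2 probe was above background in 11 null and 11 WT channels and ran from -0.17 to 0.13, with a mean of -0.02 ± 0.04. A second Per2 probe, above background in 5 null and 7 WT channels, ran from -0.18 to 0.06 and had a mean of -0.03 ± 0.04. Per3 had the values -0.07, -0.14, 0.01, 0.04, -0.35 and -0.12, with both replicates of slides 1 and 3 below 0 and both of slide 2 just above it. Its mean was -0.11 ± 0.06, 1.08-fold lower in null, and lay between -0.29 and -0.04 under all 15 alternatives, the farthest in the authors' deposited log ratios.

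Cry1, the partner of the PER proteins, had the values -0.16, -0.19 and -0.49 in the WT/null orientation and 0.16, 0.15 and 0.18 in the null/WT orientation. The sign thus followed the dye on all 3 slides. The mean of the orientations was -0.06 ± 0.05. A second Cry1 probe was above background in no channel and was not tested.

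The activator Arntl and the receptor gene Nr1d2 showed the same alternation at a smaller size. Arntl values were -0.08, -0.17 and -0.13 where WT carried Cy5, against 0.10, 0.02 and 0.10 where null did, with a mean of -0.03 ± 0.04 that moved to 0.13 under median centring. Nr1d2 values were -0.06, -0.20 and -0.25 with WT in Cy5, against 0.12, 0.04 and 0.15 with null in Cy5, with a mean of -0.03 ± 0.04. Both probes exceeded background in every channel.

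Nr1d1, the main repressor of Arntl, had a mean of 0.12 ± 0.08 that rested on 1 array. Its values were -0.02 and 0.11 on slide 1, -0.05 and 0.08 on slide 2, and 0.57 and 0.01 on slide 3. The value of 0.57 was the mean of 1.13 on the first and 0.02 on the second array of the same replicate. Without that first array the mean was 0.03. A second Nr1d1 probe, above background in 5 null and 5 WT channels, showed the reverse on those arrays, 0.05 on the first and 0.68 on the second. This probe and another, above background in 3 null and 2 WT channels, were not tested.

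How far the null over WT difference moved between slides varied among the genes. The median range of the slide means was 0.14 over the 10 genes and 0.17 over all tested genes. Per1, at 0.63, and Dbp, at 0.37, had the widest ranges of the members, and the brighter Per2 probe and Hlf, at 0.02 each, the narrowest.

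**Figure D2:**
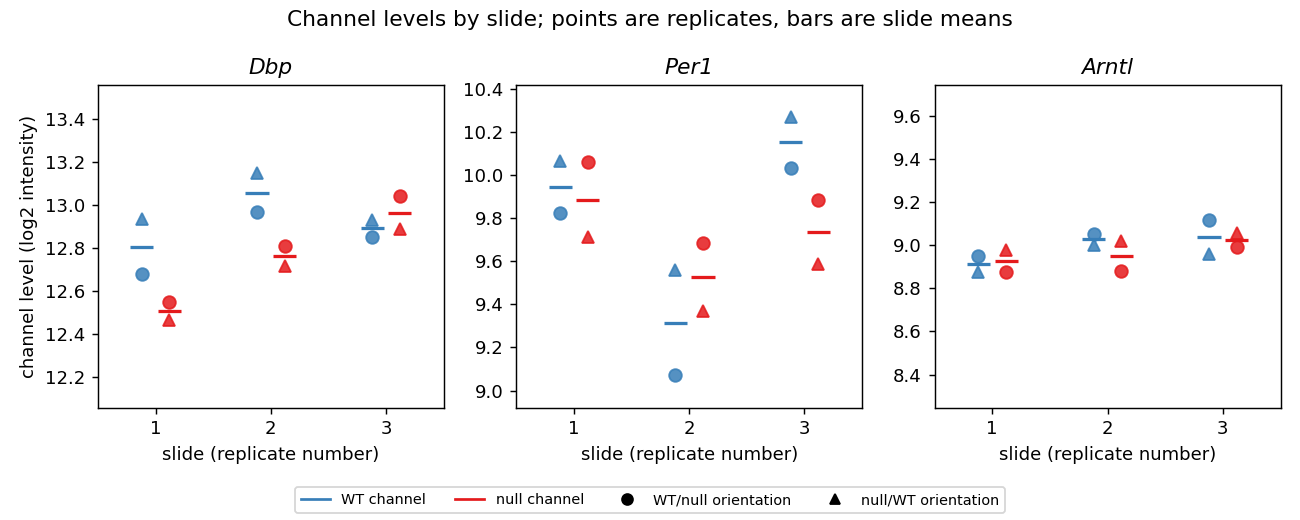
Log2 brightness after normalization (vertical axis) of null and WT kidneys on the 3 slides (horizontal axis), with panels for Dbp, Per1 and Arntl; points are replicates, shaped by dye orientation, and bars are slide means of a genotype. The WT level of Per1 lies at 9.32 on slide 2 and at 10.15 on slide 3, with the null levels of 9.53 and 9.74 between; Arntl shows little spread.

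The mean level of both genotypes, a measure free of the null over WT ratio, differed between slides for Dbp, Per1 and Per3. The test sets slides against the spread between the 2 orientations of a slide. With 1 slide per replicate number, its p-values do not measure how far slides of like samples would differ. Per1 was lowest on slide 2, with mean log2 levels of 9.92, 9.42 and 9.94 on slides 1, 2 and 3 (adjusted p = 0.00294, limma's moderated F test), a span of 1.44-fold. Dbp was lowest on slide 1, with 12.66, 12.91 and 12.93 (adjusted p = 0.0198), a span of 1.21-fold. Per3 was highest on slide 1, with 6.64, 6.38 and 6.35 (adjusted p = 0.0179), a span of 1.22-fold. Its probe was above background in 9 null and 9 WT channels. The Per3 levels lay near the 6.14 and 6.08 of the Tef and Cry1 probes that were above background in no channel. The 3 genes thus did not share an order of slides. Both genotypes moved the same way from slide 1 to slide 2: Per1 by -0.36 in null and -0.63 in WT, Dbp by 0.25 in null and 0.25 in WT, and Per3 by -0.20 in null and -0.33 in WT. From slide 2 to slide 3 this held for Per1 (0.21 in null and 0.84 in WT). In contrast, Dbp moved by 0.20 in null and -0.17 in WT, and Per3 by -0.16 in null and 0.10 in WT. Null and WT levels come from the same arrays and share slide effects, so a like direction is not separate evidence.

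These 3 of 12 probes (25.0%) stood against a background of 38.7% of all tested probes. The median range of the mean level was 0.19 over the 10 genes and 0.21 over all tested genes. Without WT/null replicate 1 the adjusted p was 0.136 for Dbp and 0.115 for Per3, and without null/WT replicate 1 it was 0.0743 and 0.0954; Per3 was also lost without background correction (0.0625). Per1 passed in all 11 alternatives, at 0.0202 or below. Median centring is among the 11 and changes ratios only, so its result was fixed at that of the main fit. With 1 array left out, the first of WT/null replicate 3, the count rose to 6 of 12 member probes, beside 10391 of 22979 tested probes.

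The other 7 genes did not pass. Cry1 was nearest, with mean levels of 7.83, 7.62 and 7.70 (adjusted p = 0.0624). Nr1d2 was at 7.48, 7.65 and 7.49 (adjusted p = 0.0855) and Nr1d1 at 6.73, 6.53 and 6.91 (adjusted p = 0.125). Hlf was at 7.74, 7.77 and 7.89 (adjusted p = 0.134) and Arntl at 8.92, 8.99 and 9.03 (adjusted p = 0.265). The brighter Per2 probe kept nearly 1 level, at 6.59, 6.57 and 6.58 (adjusted p = 0.943). The dimmer Per2 probe did not, at 6.50, 6.35 and 6.32 (adjusted p = 0.101 by the same moderated F test). The brighter Tef probe was at 7.66, 7.74 and 7.64 (adjusted p = 0.308) and the other tested Tef probe at 6.83, 6.71 and 6.82 (adjusted p = 0.197).

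**Figure D3:**
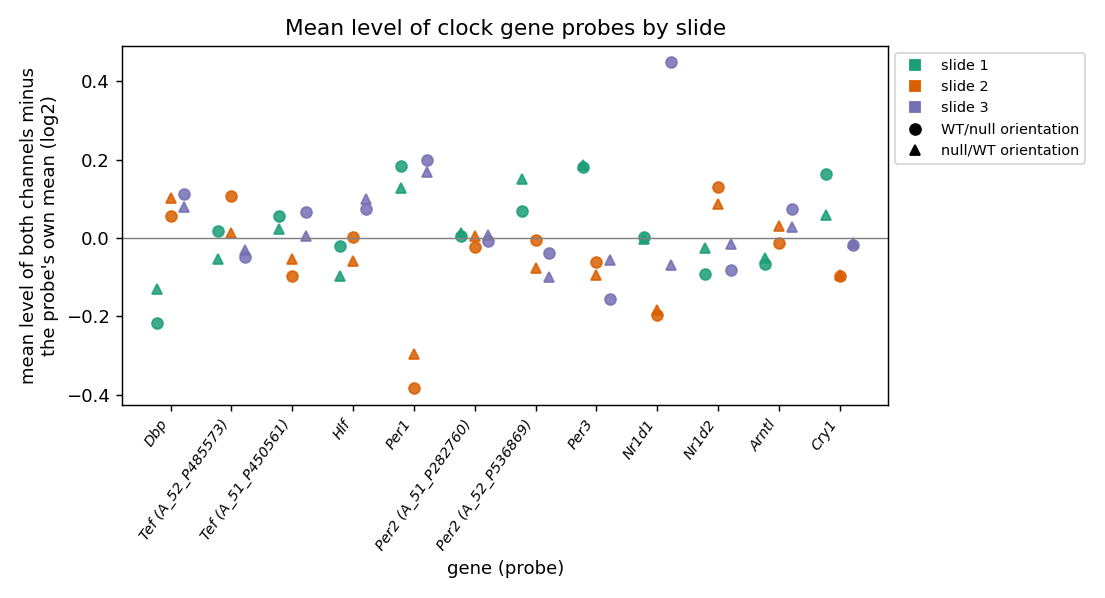
Mean log2 level of both channels minus the probe's own mean over the slides (vertical axis, log2 units) for each of the 12 tested probes (horizontal axis), 1 point per replicate, coloured by slide and shaped by dye orientation. Per1 is lowest on slide 2, Dbp lowest on slide 1 and Per3 highest on slide 1.

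Of 17 other clock genes, 13 were tested between null and WT with limma and Benjamini-Hochberg adjustment over 22979 tested probes. Of these 0 passed an adjusted p of 0.05, where 0.0392% of all tested probes did, and 1 had an unadjusted p under 0.05, where 7.01% did. With the replicate number as a block, which compares the 3 slide means with 0, 0 of 13 and 0.0174% of all tested probes passed. Npas2, Rorb, Bhlhe41 and Ciart were not tested. The means were above 0 for 5 and below 0 for 8, with a median of -0.01. The member with an unadjusted p under 0.05 was Rora, an activator of Arntl that competes with the REV-ERB receptors, at 0.11 ± 0.04 (adjusted p = 0.700). Clock, the partner of ARNTL, was at -0.06 ± 0.05, and the D-box repressor Nfil3 at -0.06 ± 0.04. The E-box repressor Bhlhe40 was at 0.10 ± 0.06, with slide means of -0.04, 0.06 and 0.28. Btrc, which marks PER proteins for destruction, was at -0.11 ± 0.05 and Timeless, which works in DNA replication, at 0.03 ± 0.08.

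Of 11 clock output genes, 10 were tested and Wee1 was not. Here 0 passed with limma and 0 had an unadjusted p under 0.05; 4 means were above 0 and 6 below, with a median of -0.01. The cold-inducible RNA-binding gene Cirbp ran from 0.34 on slide 1 through 0.01 on slide 2 to -0.22 on slide 3, with a mean of 0.05 ± 0.09. Its relative Rbm3 was at -0.07 ± 0.05. Nampt, the rate-limiting enzyme of NAD salvage, was at -0.04 ± 0.06, Noct at -0.03 ± 0.04, Por at -0.03 ± 0.04, Tspan4 at 0.05 ± 0.04 and the vitamin B6 kinase gene Pdxk at 0.09 ± 0.06.

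Of 8 glucocorticoid-responsive genes, 7 had a probe and were tested; Zbtb16 had none. Here 0 passed with limma and 1 had an unadjusted p under 0.05; 4 means were above 0 and 3 below, with a median of 0.06. That 1 was Nfkbia, the inhibitor of NF-kB, at 0.10 ± 0.04 (adjusted p = 0.700). Fkbp5, a chaperone of the glucocorticoid receptor, was at -0.18 ± 0.09, with slide means of 0.14, -0.22 and -0.46. The phosphatase gene Dusp1 was at 0.12 ± 0.07 with slide means of 0.08, -0.08 and 0.35, and the kinase gene Sgk1 at 0.09 ± 0.06 with 0.13, -0.07 and 0.21. Ddit4 was at -0.02 ± 0.06 and Tsc22d3, which both lists hold, at 0.06 ± 0.04. The order of slides in Per1 (highest on slide 2, lowest on slide 3) was the reverse of that in Dusp1 and Sgk1, and Fkbp5 was lowest on slide 3 as Per1 was; these orders rest on 3 slides and were not tested.

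Over the 3 lists together, 0 of 29 tested genes passed for a null over WT difference between replicate numbers by limma's moderated F test, where 1.48% of all tested probes did. At an unadjusted p under 0.05 the counts were 9 of 29 and 18.9%. Under median centring 20 of 29 genes passed, beside 11447 of 22979 tested probes. The mean level of both genotypes differed between slides for 13 of 29, against 38.7% of all tested probes. These were made up of 7 of 13 other clock genes, 3 of 10 output genes and 3 of 7 glucocorticoid-responsive genes. The limit given above for tests of mean level holds here too. Bhlhe40 was at 8.23, 9.20 and 8.96 (adjusted p = 0.00644) and Cirbp at 12.88, 12.35 and 12.38 (adjusted p = 0.00271). Sgk1 was at 10.32, 10.98 and 10.51 (adjusted p = 0.00146) and Fkbp5 at 7.91, 8.48 and 8.21 (adjusted p = 0.00323). Clock was at 7.35, 7.61 and 7.20 (adjusted p = 0.00475) and Nfil3 at 10.21, 9.88 and 10.03 (adjusted p = 0.0105). Clock, Sgk1, Fkbp5 and Bhlhe40 were highest on slide 2, where Per1 was lowest. Nfil3, Cirbp and Btrc (7.26, 7.05 and 7.34) were lowest on slide 2, as Per1 was. The named genes thus went both ways, and these orders were not tested.

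**Figure D4:**
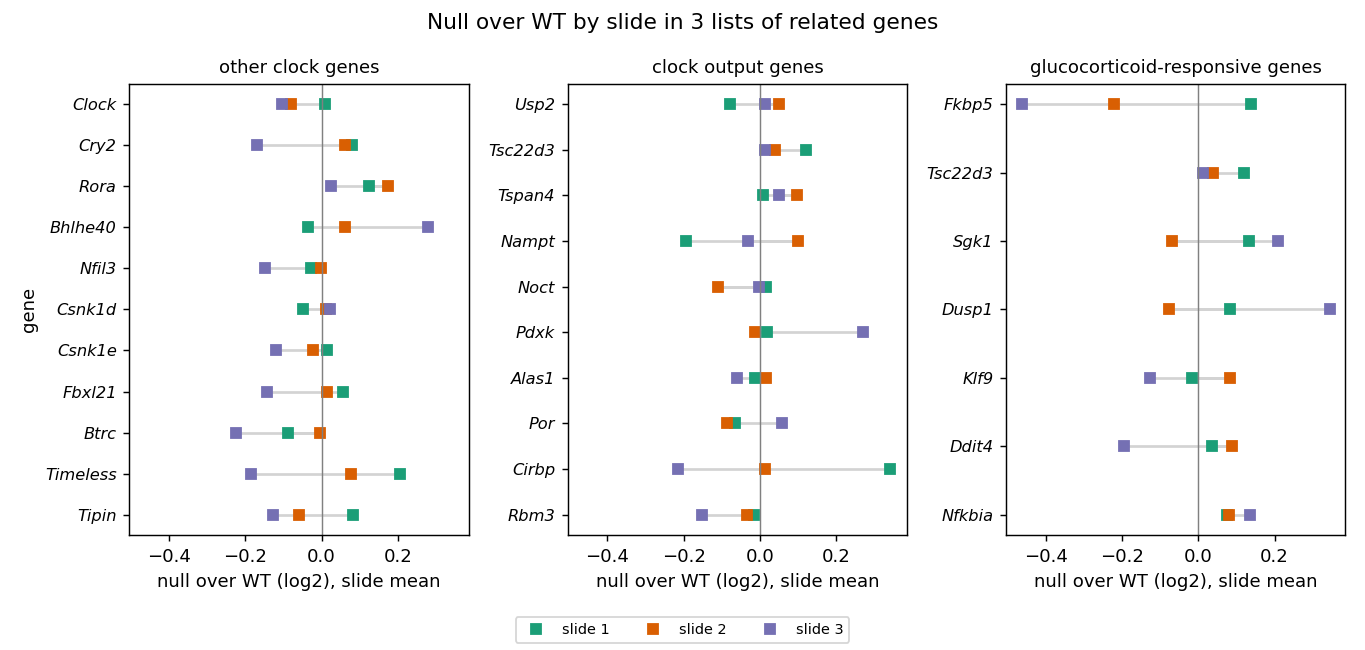
Log2 null over WT (horizontal axis) on each slide for tested genes of the 3 lists, 1 panel per list and 1 row per gene, with squares coloured by slide. Dusp1 reaches 0.35 and Fkbp5 -0.46 on slide 3, and Cirbp runs from 0.34 on slide 1 to -0.22 on slide 3.

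The 5 genes whose 6 replicate values lay nearest to those of Per1, by mean absolute difference, were Ptpru (0.0365), Gnb2 (0.0761), Dcaf15 (0.0778), Akt1s1 (0.0833) and Niban2 (0.0844). The median over 12637 genes was 0.399. Ptpru had the values 0.26 and -0.37 on slide 1, 0.56 and -0.17 on slide 2, and -0.13 and -0.60 on slide 3, close to Per1 in each replicate. The likeness took in the alternation with the dye. The other member probes lay at 0.33 to 0.54 from Per1, around that median.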

How the data were processed

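Spot and local background brightness had been deposited as median pixel intensity per dye by the authors, with no further normalization, per the file headers (Agilent Feature Extraction 10.5.1.1; the submitters' processing notes name 6.1). The same files flag spots well above background. The authors' deposited value table holds log10 ratios; set against the scanner's ratios its columns correlated at 0.998 to 0.999 with slopes of 1.00, which fixed its direction (null over WT) and scale, while the rule for its blank entries stays unknown. Its column medians ran from -0.0218 to 0.00645.

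Here background was corrected with normexp (offset 50), log2 ratios were normalized by loess within arrays (control and outlier spots at weight 0), and channel levels by Aquantile between arrays. Control and outlier spots were left out, spots of a probe and the 2 arrays of a replicate were averaged, and 22979 of 41174 probes were tested (well above background in the null or WT channel on at least 6 of 12 arrays). Symbols came from a RefSeq table of GRCm38.p6, matched by unversioned accession for 25097 probes; the array header names mm9, so no coordinates of the array were used. limma 3.58.1 in R 4.3.3 fitted genotype and dye, with Benjamini-Hochberg adjustment over all tested probes; moderated F tests compared replicate numbers. Precision is limited by the 6 replicates, in 3 replicate numbers, and not by the 12 arrays. The fits were tested on simulated data. No array column lacked a sample (0).

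Both orientations of a number shared a slide, and after removal of orientation means they correlated at 0.587, 0.517 and 0.413, so the numbers were taken to pair the samples. All 10 genes with all probes are named, then from each list up to 6 genes with the smallest p and up to 4 with the smallest p between numbers, and the 5 genes nearest to the member probe of widest range. Some list genes are counted but not reported here by name. The members and lists were chosen with earlier results of these data known.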

Additional observations from a re-analysis of the deposited data

Results flagged for a closer look

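Of 36 groups of 6 values of the member probes that were checked for a value far from the others, 2 held one, where chance gives about 5%. Both were Nr1d1 in WT/null replicate 3. Its null over WT value was 0.57 on the log2 scale, with the next at 0.11, and its null level was 7.46, with the next at 6.78. The first array of that replicate gave 1.13 and the second 0.02, and the second Nr1d1 probe gave 0.05 and 0.68 on the same arrays.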

How the results depend on the processing

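The count of null over WT calls (9 in the unpaired fit, 5 higher and 4 lower in null) was 4 with the replicate number as a block, and 3 to 62 when replicates or the first array of WT/null replicate 3 were left out, the 62 being without replicate 3. Under median centring 5 of 6 calls were higher. Neither the block nor any other setting called a gene of the clock and clock output lists (0 throughout, with limma). Calls of null over WT between replicate numbers (341) depended on the settings: 11447 under median centring, 149 without background correction, 170 without the filter on dim probes, and 38 to 9922 with replicates left out; the cause was not tested. Calls of the mean level between numbers (8888) ran from 4545 to 11170 with replicates left out, and no other setting moved them by over 1.5 times. Median centring changes ratios only and could not move these calls. Of 180 values of member probes under the alternatives, 177 moved by less than the SD of the 6 replicate values. Arntl under median centring and Per3 and the dimmer Per2 probe in the authors' deposited ratios moved further. That SD takes in the gap between dye orientations, so Dbp counted as unmoved while going from -0.17 to 0.03 under median centring. The block and the filter on dim probes leave a member's mean unchanged, so the values under those settings could not move. Dim probes limit Per2, Per3 and Nr1d1 most. The block was fitted for null over WT only, so the calls between replicate numbers could not change with it.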
